A study of Mus musculus with 19 samples.

Results

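Interferons are cytokines that cells release on sensing viral nucleic acid or bacterial products. Type I interferons act through the receptor IFNAR and a complex that includes STAT2 and IRF9, which binds the interferon-stimulated response element (ISRE), whereas type II interferon (interferon gamma) acts through its own receptor and at gamma-activated sites (GAS). Hepatocytes, Kupffer cells and endothelial cells of the liver respond to both, and the induced genes include antiviral effectors and GTPases that attack the membranes around intracellular microbes. Here 29 interferon response genes were followed through livers of mice with pre-renal azotemia (PRA), a build-up of nitrogenous waste in blood caused by poor perfusion of the kidneys. They were all gene lines of the count table that map to a list of mouse interferon-induced symbols, 29 of 55416 lines. The list holds 23 genes known mainly as type I targets and 6 guanylate-binding (GBP) and immunity-related (IRG) GTPases, which are known for their induction by interferon gamma.

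All 19 libraries came from liver of C57BL/6 mice, with 3 IL-6 -/- PRA (KO PRA), 4 IL-6 -/- vehicle (KO vehicle), 4 wild-type PRA (WT PRA), 4 wild-type vehicle (WT vehicle) and 4 normal libraries. PRA was produced by furosemide, a loop diuretic, given intraperitoneally as 2 injections of 4 mg separated by 3 h. Vehicle mice had 2 injections without furosemide, normal mice were wild-type and had no injection, and the liver was taken 6 h after the first injection. The comparisons ask how liver genes respond to PRA and whether the response differs without IL-6, the cytokine that drives the acute phase response of hepatocytes. Every PRA library had furosemide and no vehicle library had it, so the drug itself and the azotemia cannot be told apart. A change with PRA below means a change with both together.

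Gene counts ranged from 32073865 to 74041441 per library, and 6 hepatocyte markers together summed to 72600 to 145000 CPM (counts relative to the library total, scaled by the TMM method) in every library. The targeted gene Il6 had at most 5 counts per library except for 16 in KO PRA replicate 2, WT libraries held 0 to 4, and these counts cannot check the genotype labels. No label states that each library is a different animal, and the p-values below therefore rest on a spread between libraries that may be technical only. In whole liver, fewer cells of a type and less RNA per cell cannot be told apart.

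In KO livers, PRA lowered 10 of the 29 genes (8.38% of all tested genes were lowered) and raised none, and the fall reached 5 of the 6 GTPases, with Igtp at 0.422, Iigp1 at 0.494, Gbp7 at 0.483 and Gbp3 at 0.519 times the KO vehicle level. In WT livers, PRA raised 5 type I genes (9.74% of all tested genes were raised), among them Usp18 (2.13-fold), Mx2 and Oas2, together with the transcription factors Irf9 and Stat2, and lowered a single GTPase, Gbp7. Over all tested genes, 22.1% changed in either direction in WT livers. An unadjusted edgeR p under 0.05 was reached there by 7 of the 29, against 34.5% of all tested genes. The difference between the genotypes' responses passed the test for Irgm1 alone (0.475% of all tested genes passed), and its estimate was negative for all 29 genes.

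Promoter sequence is shown for genes that changed with PRA in a genotype and carry a match, so that the 2 elements named above can be seen in their setting. RefSeq gives promoters for 23 of the 29 genes (26 promoters) on build GRCm38.p6, an earlier build than the GRCm39 of the counts. No promoter of Usp18, Oas2, Mx1, Mx2, Rtp4 or Iigp1 was used here. In the 250 bases before each start, both strands were searched for the ISRE core GAAANNGAAA (TTTCNNTTTC on the other strand) and the GAS core TTCNNNGAA, and matches of the 2 could overlap. An ISRE core lay in 5 of 6 GTPase promoters and in 10 of 20 type I promoters, against 2.98% of all 32851 promoters. A GAS core lay in 2 GTPase promoters and 3 type I promoters, against 7.02% of all promoters. The windows below run 5′ to 3′ on the gene's own strand, with every ISRE or GAS match in capitals. The first group holds GTPases that fell in KO PRA livers, and the second holds type I genes, of which Ifit2, Ifit3, Ifit3b and Ddx60 fell in KO PRA livers and Stat2 rose in WT PRA livers.
Irgm1 (GRCm38.p6 chr11:48871421-48871500, minus strand): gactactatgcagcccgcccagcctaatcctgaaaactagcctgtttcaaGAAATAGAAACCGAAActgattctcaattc
Igtp (GRCm38.p6 chr11:58199476-58199555, plus strand): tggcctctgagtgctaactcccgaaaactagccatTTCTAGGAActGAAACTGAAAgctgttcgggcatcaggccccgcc
Gbp7 (GRCm38.p6 chr3:142530220-142530302, plus strand): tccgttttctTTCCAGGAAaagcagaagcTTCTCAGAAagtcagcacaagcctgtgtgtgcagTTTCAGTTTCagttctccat
Gbp3 (GRCm38.p6 chr3:142559964-142560043, plus strand): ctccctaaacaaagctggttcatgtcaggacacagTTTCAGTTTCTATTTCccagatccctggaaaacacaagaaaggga
Ifit2 (GRCm38.p6 chr19:34550444-34550523, plus strand): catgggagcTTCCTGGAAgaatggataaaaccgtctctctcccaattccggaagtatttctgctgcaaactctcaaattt
Ifit3 (GRCm38.p6 chr19:34583355-34583434, plus strand): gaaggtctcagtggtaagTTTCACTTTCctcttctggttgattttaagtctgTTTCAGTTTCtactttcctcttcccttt
Ifit3b (GRCm38.p6 chr19:34607751-34607830, plus strand): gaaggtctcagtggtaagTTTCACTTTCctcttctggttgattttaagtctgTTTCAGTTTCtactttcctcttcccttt
Ddx60 (GRCm38.p6 chr8:61928007-61928086, plus strand): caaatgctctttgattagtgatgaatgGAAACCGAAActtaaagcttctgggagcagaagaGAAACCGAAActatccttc
Stat2 (GRCm38.p6 chr10:128270248-128270327, plus strand): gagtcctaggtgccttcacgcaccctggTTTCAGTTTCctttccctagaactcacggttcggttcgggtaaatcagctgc
Igtp and Gbp7 carried both elements, at 36 (GAS) and 24 (ISRE) bases before the start of Igtp and at 97 and 78 (GAS) and 43 (ISRE) bases before that of Gbp7. Irgm1 and Gbp3 each carried 2 overlapping ISRE cores in the promoter shown, and a second promoter of Gbp3 had no match to either core. Ifit2, with the largest KO fall, had a GAS core and no ISRE core in this promoter and no match in a second one. Xaf1, which fell in KO PRA livers, and Irf9, which rose in WT PRA livers, had promoters with no match to either core. The windows of Ifit3 and Ifit3b were the same letter for letter. A match is a description of the letters and not a bound site.

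Every one of the 29 genes passed the filter on low counts, and the lowest count of any in a library was 16. Levels can be compared between genes only per length of exon. Per kilobase, Bst2 (tetherin, which holds budding virus at the cell surface) was highest, at 148, 147, 153, 137 and 149 CPM per kb in KO PRA, KO vehicle, WT PRA, WT vehicle and normal livers. Iigp1 came next, at 42.8, 86.8, 72.1, 70.4 and 76.4 CPM per kb in the same groups. Ddx60, Oas3 and Ifit2 were among the lowest, at 0.13, 0.222 and 0.304 CPM per kb in KO PRA livers and 0.239, 0.153 and 0.588 CPM per kb in normal livers.

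**Figure D1:**
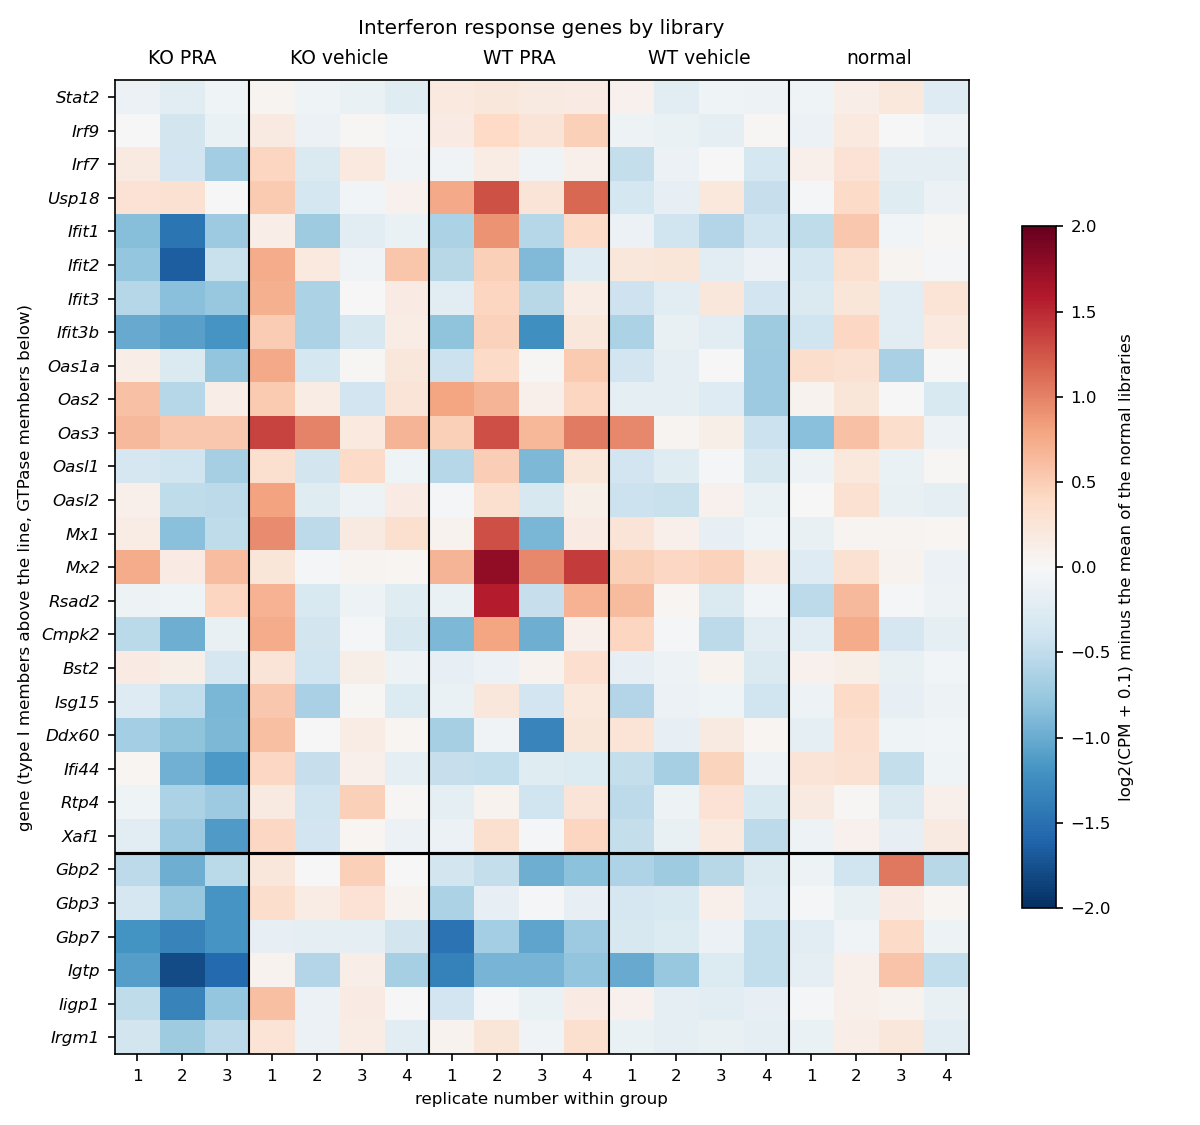
Level of each of the 29 genes (rows) in each of the 19 libraries (columns, by group and replicate number), as log2(CPM + 0.1) minus the mean of the normal libraries. Usp18 and Mx2 are above the normal mean in all WT PRA libraries, the GTPases below the line have their lowest group means in KO PRA, and single libraries (KO vehicle 1, WT PRA 2, normal 2) stand high across many rows.

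Some libraries stood high or low across most of the genes. KO vehicle replicate 1 was the highest of its 4 libraries in 25 of the 29 genes, against 25.3% of all tested genes, and KO vehicle replicate 2 was the lowest in 21 (29.4% of all genes). WT PRA replicate 2 was highest in 16 (24.6%) and WT PRA replicate 4 in 9 (24.8%), and WT PRA replicate 3 was lowest in 15 (25.0%). KO PRA replicate 1 was highest of 3 in 22 (28.7%), and normal replicate 2 was highest in 19 (22.3%). Reads not uniquely placed made up 19.2% of WT PRA replicate 2, 18.7% of KO vehicle replicate 1 and 18.2% of WT PRA replicate 4, against 14.1% to 16.9% of every other library. Their part in the results was not tested. The counts of changed genes are therefore also given without KO vehicle replicate 1 and WT PRA replicate 2, an alternative chosen after the values were seen.

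Interferon transcripts themselves were near the floor. Of 18 interferon genes listed, none passed the filter on low counts, 13 had no count in any library, and the highest count in a library was 4, for Ifnk and for Ifng. Ifng, the gene of interferon gamma, had 19 counts over all libraries and none in WT PRA libraries, and Ifnk had 4 in all. At this depth a change in interferon mRNA was not detectable. The limit that a count of 0 sets, taken as 3 counts and covering counting error only, lay between 0.0405 and 0.0935 CPM of the library total.

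Among 6 receptor chains, Ifngr2, the signalling chain of the interferon gamma receptor, fell in both genotypes. It averaged 17.5 ± 0.614 CPM in KO PRA (SD, n = 3) against 29.8 ± 7.5 CPM in KO vehicle livers (n = 4), a log2 fold change of -0.76 ± 0.15 (SE; edgeR quasi-likelihood adjusted p = 0.00145). In WT livers it averaged 16.7 ± 2.31 CPM with PRA and 25.7 ± 3.19 CPM with vehicle (n = 4 each; -0.62 ± 0.14, edgeR adjusted p = 0.00285). Il10rb, the chain shared by the receptors of interferon lambda and IL-10, fell in KO livers (4.52 ± 0.419 CPM with PRA, 6.73 ± 0.986 CPM with vehicle; -0.57 ± 0.16, edgeR adjusted p = 0.0195), and the difference between genotypes did not pass for any receptor (lowest edgeR adjusted p = 0.778). The call of Il10rb was lost without KO vehicle replicate 4 (edgeR adjusted p = 0.0683) and without KO PRA replicate 3 (0.0833). Ifnar1, Ifnar2, Ifngr1 and Ifnlr1 did not pass in either genotype.

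PRA in WT livers raised 5 of the 29 genes and lowered 1 (edgeR adjusted p at or under 0.05), where 9.74% of the 15570 tested genes were raised and 12.3% lowered. In either direction 22.1% of the tested genes changed. With an unadjusted edgeR p under 0.05, 7 of the 29 were counted, against 34.5% of all tested genes. All 5 that rose were type I genes (5 of 23). Among all 29, 21 estimates were positive, with a median log2 fold change of 0.26 for the genes listed, 0.27 for the type I genes and -0.07 for the GTPases, against -0.03 for all genes. Without KO vehicle replicate 1 and WT PRA replicate 2, 4 rose and 1 fell, 17 estimates were positive and the median was 0.06.

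PRA in KO livers lowered 10 of the 29 genes and raised none, where 8.38% of the tested genes were lowered and 7.96% raised. The 10 were 5 of 6 GTPases and 5 of 23 type I genes. Of the 29 estimates 25 were negative, and the median was -0.56 (-0.52 for the type I genes and -0.98 for the GTPases), against 0.00 for all genes. Leaving out KO vehicle replicate 1 and WT PRA replicate 2 left 6 genes lowered, none raised and a median of -0.43, with -0.26 for the type I genes and -0.88 for the GTPases. The count was 6 also without KO PRA replicate 3.

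**Figure D2:**
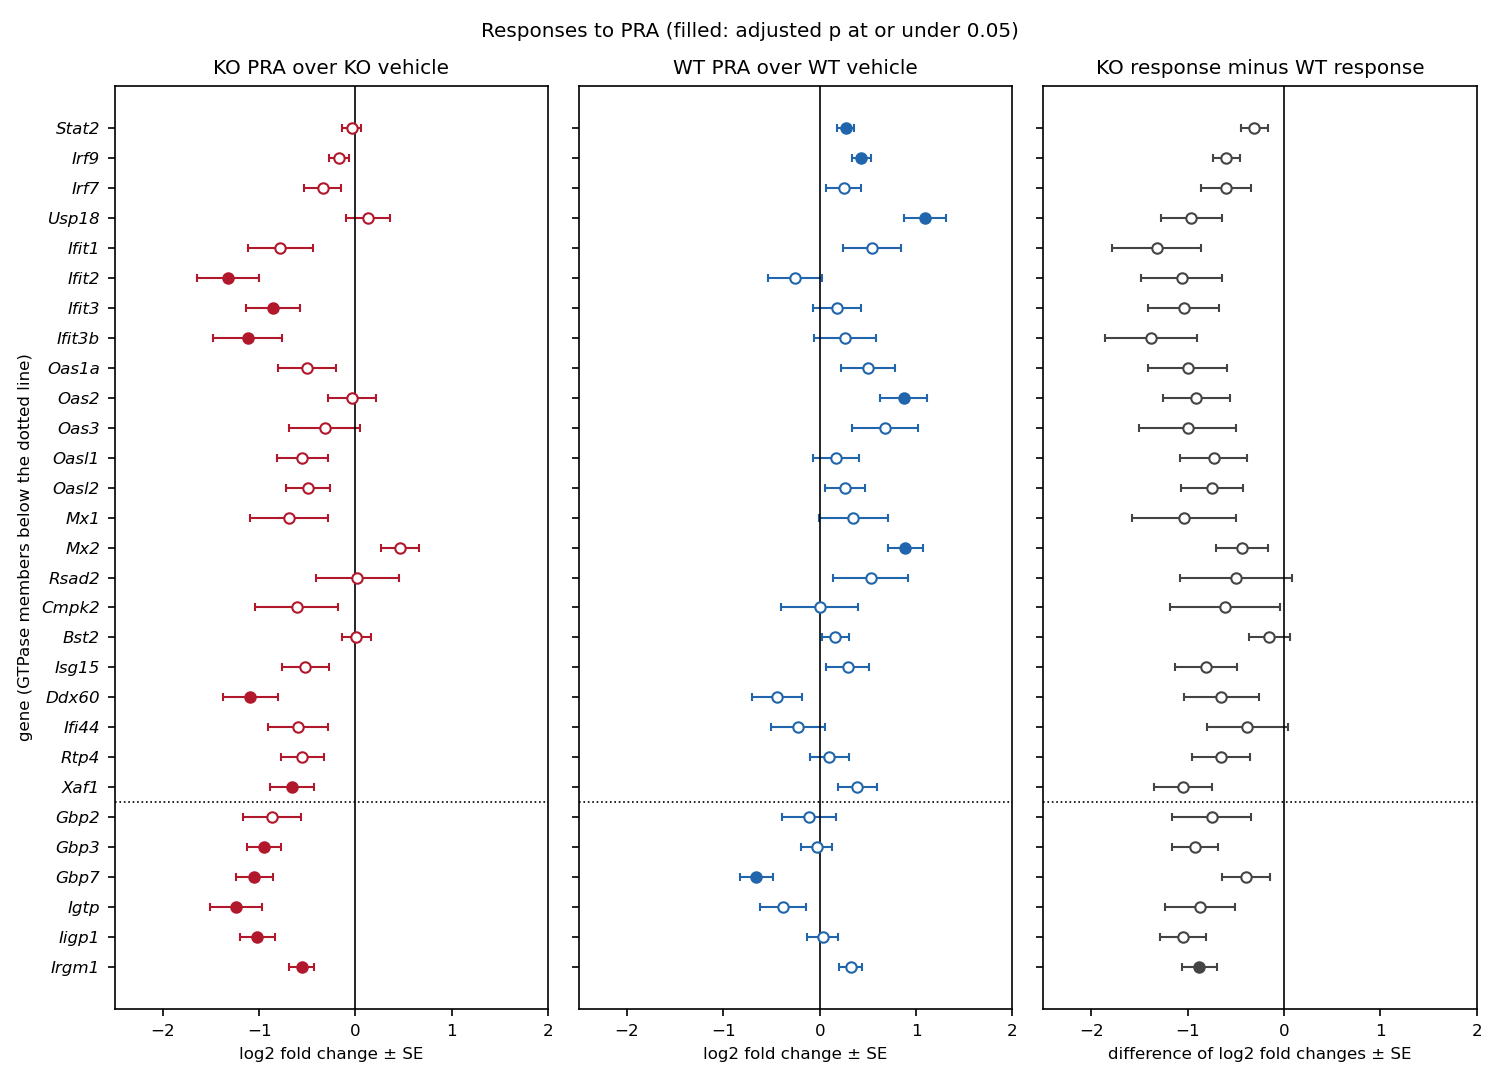
Log2 fold change ± SE of each of the 29 genes for KO PRA over KO vehicle (left), WT PRA over WT vehicle (middle) and the KO response minus the WT response (right), filled where the edgeR adjusted p was at or under 0.05. The filled points are 10 on the left, all below 0, then 6 in the middle, with Gbp7 alone below 0, and Irgm1 on the right.

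Of the 4 transcription factors and feedback genes, 3 rose in WT PRA livers, and none passed in KO livers. Usp18 encodes a protease that removes ISG15 from proteins and restrains type I receptor signalling. It had 14.7, 14.9 and 11.9 CPM in KO PRA libraries, against 17.2, 9.32, 11.5 and 12.7 CPM in KO vehicle libraries. WT PRA libraries had 20.3, 29.2, 14.4 and 26.8 CPM, against 9.41, 10.7, 13.9 and 8.72 CPM in WT vehicle libraries and 10.1 to 15.7 CPM in normal libraries. Every WT PRA library stood above every WT vehicle library, by a narrow margin for replicate 3, while the KO groups overlapped. The rise was 1.09 ± 0.22 on the log2 scale, or 2.13-fold (edgeR adjusted p = 0.00139), and the KO difference was 0.13 ± 0.23 (0.76).

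Irf9, the DNA-binding subunit of the type I complex, had 32.7, 25.5 and 30.1 CPM in KO PRA and 37.3, 30.2, 33.4 and 31.7 CPM in KO vehicle libraries. It had 36.9, 43.3, 39.4 and 45.6 CPM in WT PRA libraries, against 30.7, 29.8, 28.7 and 33.4 CPM in WT vehicle libraries and 30.3 to 37.6 CPM in normal libraries. The WT PRA libraries were all above the WT vehicle libraries, and all above the KO PRA libraries. PRA raised it by 0.43 ± 0.10 in WT livers (edgeR adjusted p = 0.00261), and the KO difference was -0.17 ± 0.10 (0.291). Stat2, its partner, had 48.7, 45.9 and 49.9 CPM in KO PRA and 55.2, 50.2, 48.2 and 44.7 CPM in KO vehicle libraries. In WT PRA libraries it had 60.9, 61.9, 60.0 and 59.5 CPM, against 56.1, 46.0, 49.8 and 49.4 CPM in WT vehicle libraries and 44.4 to 61.5 CPM in normal libraries. The WT PRA libraries lay within a narrow band above all WT vehicle libraries but overlapped the normal ones. The rise of Stat2 was 0.27 ± 0.09 (edgeR adjusted p = 0.0447), and it did not pass when any 1 of WT vehicle 2, 3 and 4 or WT PRA 1, 2, 3 and 4 was left out (0.0695 to 0.128). Irf7, which drives interferon alpha genes, was the gene of the group that passed in no comparison and ranged from 28.4 to 62.0 CPM over all libraries.

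The IFIT genes encode proteins that bind foreign RNA, and 3 of the 4 fell in KO PRA livers while none passed in WT livers. Ifit2 had 1.25, 0.637 and 1.59 CPM in KO PRA libraries, against 3.76, 2.56, 2.10 and 3.28 CPM in KO vehicle libraries. Its WT levels were 1.47, 3.13, 1.15 and 1.83 CPM with PRA and 2.60, 2.64, 1.90 and 2.04 CPM with vehicle, and 1.71 to 2.78 CPM in normal libraries. The KO groups did not overlap and the WT groups did. The KO fall was -1.32 ± 0.32, to 0.401 times vehicle (edgeR adjusted p = 0.00629), the largest in size among the 29 genes, and the WT difference was -0.26 ± 0.28 (0.541).

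Ifit3 had 9.05, 7.52 and 7.94 CPM in KO PRA libraries, against 22.1, 8.68, 13.6 and 15.1 CPM in KO vehicle libraries, where replicate 2 lay within the KO PRA range. Ifit3b had 1.77, 1.66 and 1.55 CPM in KO PRA libraries, against 5.24, 2.32, 2.89 and 4.06 CPM in KO vehicle libraries, with no overlap. In WT libraries, Ifit3 had 11.6, 18.3, 9.18 and 15 CPM with PRA and 10.1, 11.6, 15.9 and 10.4 CPM with vehicle, and Ifit3b had 2.05, 5.03, 1.5 and 4.30 CPM with PRA and 2.31, 3.28, 3.14 and 2.18 CPM with vehicle. Normal libraries held 11.1 to 16.3 CPM of Ifit3 and 2.74 to 4.88 CPM of Ifit3b, and the WT groups overlapped for both. The falls in KO livers were -0.86 ± 0.28 for Ifit3 (edgeR adjusted p = 0.0404) and -1.12 ± 0.36 for Ifit3b (0.0373). Both calls depended on single libraries, and leaving out any 1 of the KO libraries except KO vehicle 2 gave adjusted p of 0.0573 to 0.135 for Ifit3. For Ifit3b, leaving out any 1 of KO vehicle 1 and 4 and KO PRA 1, 2 and 3 gave 0.0781 to 0.112. The pair are 98.0% identical over 1697 aligned transcript bases, so their separate values are uncertain.

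Ifit1 passed in no comparison by edgeR. It had 4.60, 2.98 and 5.01 CPM in KO PRA libraries, against 9.20, 5.08, 7.19 and 7.58 CPM in KO vehicle libraries. With WT PRA it had 5.36, 15.7, 5.57 and 10.9 CPM, WT vehicle libraries 7.67, 6.34, 5.53 and 6.31 CPM, and normal libraries 5.83 to 12.2 CPM. All KO PRA libraries were below all others, and the WT PRA group was split, with replicates 2 and 4 high. The log2 difference was -0.78 ± 0.34 in KO livers (edgeR adjusted p = 0.133) and 0.54 ± 0.30 in WT livers (0.22), and -1.16 ± 0.34 between KO PRA and WT PRA (0.0714). The last difference passed with DESeq2 (adjusted p = 0.00494) and by edgeR without WT PRA 1 (0.0302) or WT PRA 3 (0.0393), and the KO difference passed with only the compared groups (0.0365).

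Of the 5 genes of the OAS family, most of whose enzymes make the oligoadenylates that activate RNase L, Oas2 alone passed. It had 3.34, 1.45 and 2.40 CPM in KO PRA and 3.20, 2.45, 1.65 and 2.63 CPM in KO vehicle libraries. The WT PRA libraries held 3.88, 3.59, 2.36 and 2.98 CPM, against 1.93, 1.91, 1.81 and 1.29 CPM in WT vehicle libraries and 1.75 to 2.60 CPM in normal libraries. The WT groups did not overlap and the KO groups did. The rise in WT livers was 0.87 ± 0.24 (edgeR adjusted p = 0.011). Oas1a, Oas3, Oasl1 and Oasl2 did not pass in any comparison by edgeR over all libraries, although all 5 OAS estimates were above 0 in WT livers (0.17 to 0.87) and below 0 in KO livers (-0.55 to -0.04).

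Mx2, a gene of the dynamin-like Mx GTPase family, had the highest WT PRA level relative to normal livers of any of the 29 genes. It had 7.55, 4.99 and 6.86 CPM in KO PRA and 5.30, 4.38, 4.65 and 4.58 CPM in KO vehicle libraries. WT PRA libraries had 7.23, 15.5, 8.78 and 11.9 CPM, against 6.21, 5.94, 6.20 and 5.11 CPM in WT vehicle libraries and 3.72 to 5.5 CPM in normal libraries. No WT PRA library overlapped the WT vehicle or normal libraries, and replicates 2 and 4 were the high ones. The rise was 0.89 ± 0.18 over WT vehicle (edgeR adjusted p = 0.00139) and 1.27 ± 0.19 over normal (3.06e-05), and the KO difference was 0.46 ± 0.20 (0.131). Mx1 and Mx2 share 94.1% of 996 aligned bases, which makes their separate values uncertain, and Mx1 stayed between 0.642 and 3.34 CPM over all libraries and passed in no comparison.

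Ddx60, an RNA helicase that supports antiviral sensing, had 0.928, 0.841 and 0.786 CPM in KO PRA libraries, against 2.40, 1.56, 1.73 and 1.60 CPM in KO vehicle libraries. Its WT values were 0.935, 1.47, 0.562 and 1.86 CPM with PRA and 1.89, 1.37, 1.77 and 1.60 CPM with vehicle, and 1.34 to 1.98 CPM in normal libraries. The KO groups stood apart and the WT groups overlapped. The KO fall was -1.09 ± 0.29 (edgeR adjusted p = 0.0132; 0.0512 without KO PRA replicate 3), and the WT difference was -0.44 ± 0.26 (0.239). Xaf1, which antagonises an inhibitor of apoptosis, had 4.96, 3.41 and 2.55 CPM in KO PRA and 7.64, 4.37, 5.89 and 5.27 CPM in KO vehicle libraries, which overlapped. Xaf1 in WT PRA libraries was at 5.29, 7.15, 5.67 and 7.74 CPM, WT vehicle libraries 4.08, 5.18, 6.59 and 3.98 CPM and normal libraries 5.09 to 6.49 CPM. Its KO fall of -0.66 ± 0.23 sat at the threshold (edgeR adjusted p = 0.05) and was lost without any 1 of KO vehicle 1, 3 and 4 or KO PRA 2 and 3 (0.0632 to 0.213), and the WT difference was 0.39 ± 0.20 (0.182).

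The remaining type I genes passed in no comparison by edgeR over all libraries. These were Irf7, Oas1a, Oas3, Oasl1, Oasl2, Mx1, Rsad2 (viperin), Cmpk2 (a mitochondrial nucleotide kinase beside it on the chromosome), Bst2, Isg15 (a ubiquitin-like modifier), Ifi44 and Rtp4. Rsad2 was uneven among WT PRA libraries, at 6.51, 21.5, 5.19 and 11.7 CPM, against 5.81 to 11.2 CPM in WT vehicle libraries. Isg15 ranged from 4.50 to 7.17 CPM in KO PRA, 5.44 to 12.6 CPM in KO vehicle, 6.61 to 10.1 CPM in WT PRA and 5.71 to 8.10 CPM in WT vehicle libraries.

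**Figure D3:**
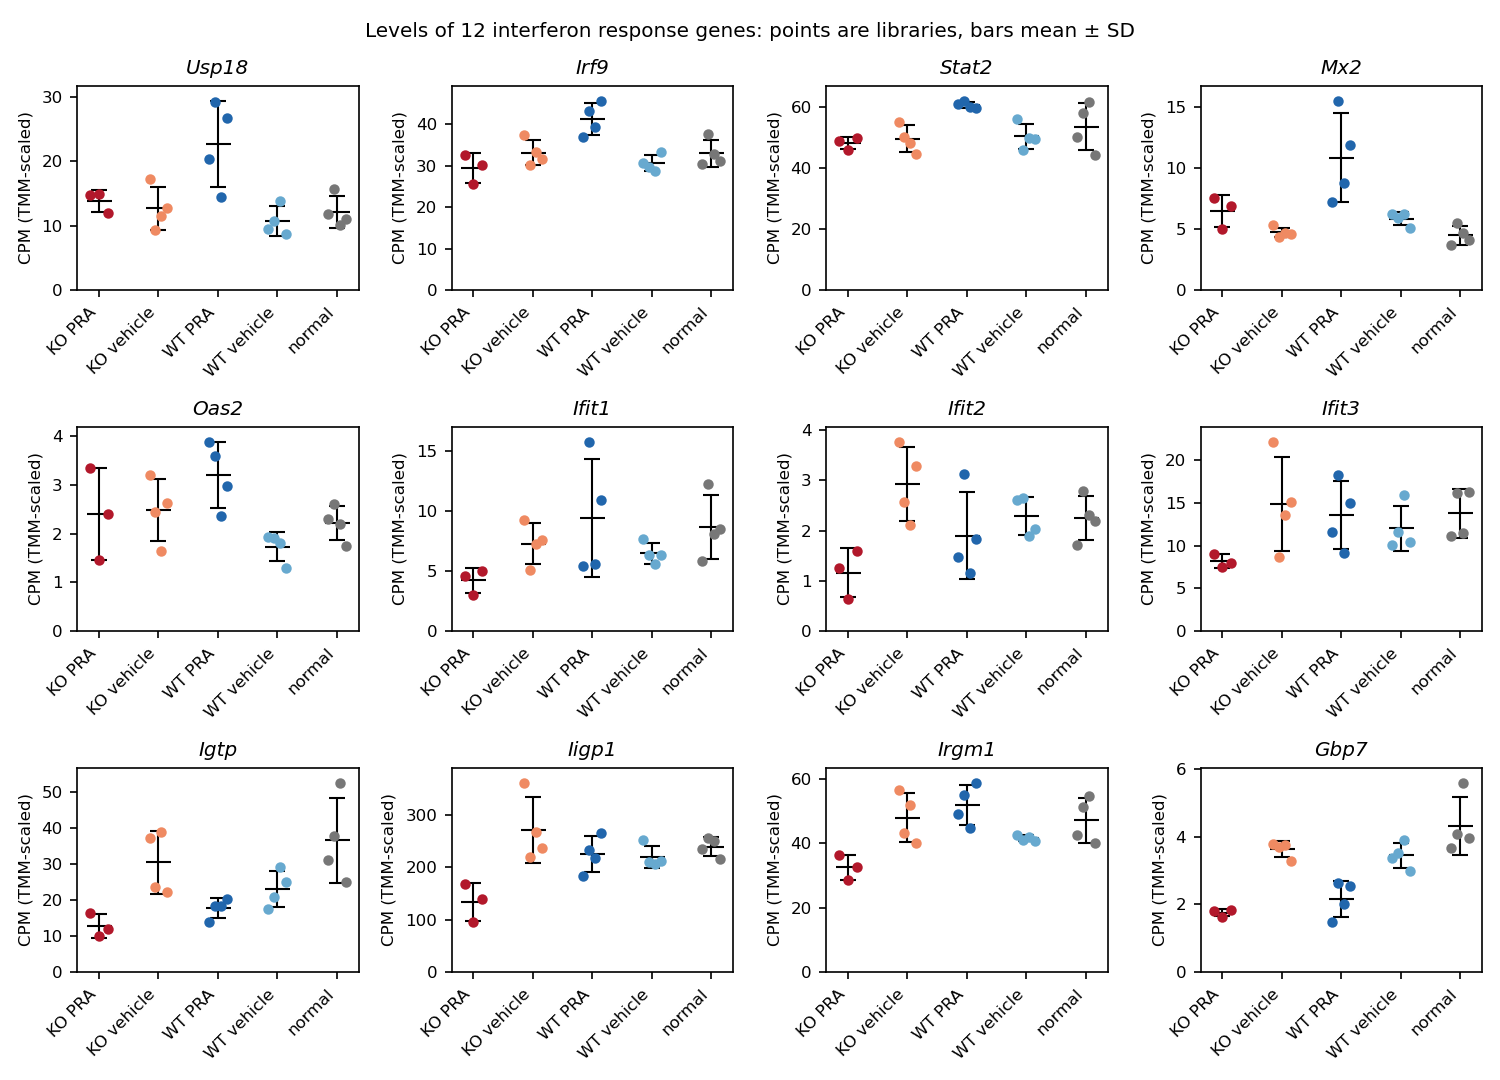
TMM-scaled CPM of 12 of the genes by group, with a point per library and bars for mean ± SD (n = 3 for KO PRA and 4 for every other group). On average Usp18, Irf9, Stat2, Mx2 and Oas2 are highest in WT PRA, Igtp, Iigp1 and Irgm1 are lowest in KO PRA, and Gbp7 is low in both PRA groups.

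The guanylate-binding proteins coat and open the vacuoles and membranes of intracellular microbes. Gbp7 fell with PRA in both genotypes. It had 1.80, 1.63 and 1.83 CPM in KO PRA libraries, against 3.80, 3.70, 3.77 and 3.28 CPM in KO vehicle libraries. WT PRA libraries had 1.47, 2.62, 2.01 and 2.53 CPM, against 3.38, 3.53, 3.91 and 3.00 CPM in WT vehicle libraries and 3.66 to 5.59 CPM in normal libraries. Neither genotype's groups overlapped. The fall was -1.05 ± 0.19 in KO livers (edgeR adjusted p = 0.000533) and -0.66 ± 0.17 in WT livers (0.00688), and the difference between the falls did not pass (-0.39 ± 0.25, adjusted p = 0.735).

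Gbp3 had 4.48, 3.31 and 2.46 CPM in KO PRA libraries, against 7.23, 6.33, 6.93 and 5.94 CPM in KO vehicle libraries. It had 3.63, 5.05, 5.59 and 5.08 CPM in WT PRA libraries, 4.47, 4.56, 6.10 and 4.74 CPM in WT vehicle libraries and 5.09 to 6.35 CPM in normal libraries. The KO groups stood apart and the WT groups overlapped. The KO fall was -0.95 ± 0.18, to 0.519 times vehicle (edgeR adjusted p = 0.000972). Gbp3 and Gbp7 share 81.5% of 1817 aligned bases, so some of their reads may have been left out as not uniquely placed. Gbp2 had 3.59, 2.60 and 3.53 CPM in KO PRA and 6.12, 5.16, 7.23 and 5.18 CPM in KO vehicle libraries, with no overlap, yet its difference missed the threshold (-0.87 ± 0.30, edgeR adjusted p = 0.0551). WT libraries had 3.99, 3.70, 2.60 and 2.89 CPM of Gbp2 with PRA and 3.34, 3.14, 3.51 and 4.22 CPM with vehicle. In normal libraries Gbp2 had 4.83, 3.91, 10.9 and 3.50 CPM, with replicate 3 far above the others.

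The immunity-related GTPases all fell in KO PRA livers. Iigp1, an effector that loads onto parasite vacuoles, was the most abundant GTPase per length. It had 168, 94.6 and 139 CPM in KO PRA libraries, against 361, 220, 268 and 237 CPM in KO vehicle libraries. WT PRA libraries had 183, 234, 218 and 266 CPM, WT vehicle libraries 252, 211, 207 and 212 CPM and normal libraries 215 to 256 CPM. Every KO PRA library was below every other library, and the WT groups overlapped. The mean was 134 ± 37.0 CPM in KO PRA and 271 ± 62.9 CPM in KO vehicle livers (SD, n = 3 and 4), a change of -1.02 ± 0.18 on the log2 scale (edgeR adjusted p = 0.000495), while WT PRA and WT vehicle livers averaged 225 ± 34.2 and 220 ± 21.1 CPM (n = 4 each).

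Igtp (also called Irgm3), a regulator of the effector GTPases, had 16.4, 10.1 and 11.9 CPM in KO PRA libraries, against 37.2, 23.5, 38.8 and 22.3 CPM in KO vehicle libraries. Igtp levels in WT PRA libraries were 13.8, 18.4, 18.4 and 20.4 CPM, WT vehicle libraries 17.4, 20.8, 29.1 and 25.1 CPM and normal libraries 31.2, 37.8, 52.5 and 25.0 CPM. The KO groups did not overlap, and the WT PRA and WT vehicle groups did. The KO fall was -1.24 ± 0.27, to 0.422 times vehicle (edgeR adjusted p = 0.00458), and the WT difference was -0.38 ± 0.24 (0.296). Irgm1, another regulator of this family, had 36.3, 28.5 and 32.6 CPM in KO PRA libraries, against 56.6, 43.1, 51.7 and 40.1 CPM in KO vehicle libraries. WT PRA libraries had 49.0, 55.0, 44.7 and 58.6 CPM, WT vehicle libraries 42.6, 41.0, 42.0 and 40.7 CPM and normal libraries 39.9 to 54.5 CPM. In KO livers every PRA library was below every vehicle library, and in WT livers every PRA library was above every vehicle library. The KO fall was -0.56 ± 0.13 (edgeR adjusted p = 0.00475), and the WT difference of 0.32 ± 0.12 missed the threshold (0.0565).

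Whether the PRA response differed between the genotypes was tested with the interaction, the KO response minus the WT response. Irgm1 alone passed (-0.88 ± 0.18, edgeR adjusted p = 0.0216), where 0.437% of all tested genes passed in that direction, 0.0385% in the other and 0.475% in either. Its call was lost without WT vehicle 2 (0.0523), KO vehicle 3 (0.0539), KO PRA 2 (0.0868) or KO PRA 3 (0.0522), and without KO vehicle 1 and WT PRA 2 together (0.0965), which left none of the 29 past the threshold. The next smallest adjusted p-values were 0.0511 for Iigp1 (-1.05 ± 0.24) and 0.0638 for Irf9 (-0.60 ± 0.14). All 29 estimates were negative, from -1.38 for Ifit3b to -0.15 for Bst2, with a median of -0.81, against 45.5% negative and a median of 0.03 over all genes. At an unadjusted p under 0.05, 18 of the 29 passed, against 8.94% of all tested genes. DESeq2 called 4 of them and limma-voom 3. Without KO vehicle 1 and WT PRA 2 together, 27 estimates were negative and the median was -0.55. Leaving out 1 library gave 28 or 29 negative estimates.

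Under PRA, KO livers had less than WT livers of 5 of the 29 genes and more of none, where 2.15% of all tested genes were lower and 1.64% higher. Irgm1 averaged 32.5 ± 3.91 CPM in KO PRA and 51.8 ± 6.18 CPM in WT PRA livers (-0.68 ± 0.13, edgeR adjusted p = 0.00372), and the groups did not overlap. Irf9 was at 29.4 ± 3.61 and 41.3 ± 3.89 CPM in KO PRA and WT PRA livers (-0.49 ± 0.10, 0.00874), with a call that was lost without KO PRA replicate 2 (0.0678). Iigp1 was lower by the test as well (-0.75 ± 0.18, 0.0171), although not without WT PRA 4 (0.0591), KO PRA 2 (0.0959) or KO PRA 3 (0.0515). Mx2 (6.47 ± 1.32 and 10.9 ± 3.65 CPM in KO PRA and WT PRA livers; -0.75 ± 0.20, 0.0396) and Xaf1 (3.64 ± 1.22 and 6.46 ± 1.17 CPM; -0.83 ± 0.23, 0.0452) were nearer the threshold. The call of Mx2 was lost without any 1 of WT PRA 2 and 4 or KO PRA 1, 2 and 3 (0.0511 to 0.17), and that of Xaf1 without any 1 of WT PRA 2, 3 and 4 or KO PRA 2 and 3 (0.0629 to 0.203). All 29 estimates were negative (27 to 29 when 1 library was left out), with a median of -0.49, against 46.6% negative and a median of 0.02 over all genes. The count was 3 without KO vehicle 1 and WT PRA 2 together, 3 without WT PRA 2 alone, 2 without WT PRA 4 or KO PRA 3 and 1 without KO PRA 2.

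After vehicle, none of the 29 genes passed between KO and WT livers (edgeR adjusted p of 0.671 or more), where 0.0706% of all tested genes did (0.0514% higher and 0.0193% lower in KO). At an unadjusted p under 0.05 there were 3, against 5.99% of all tested genes, and DESeq2 and limma-voom called none. Of the 29 estimates 26 were positive, with a median of 0.27, against 47.6% positive and a median of -0.01 over all genes. Without KO vehicle replicate 1 the median was 0.07 and 21 were positive. The lowest unadjusted p belonged to Gbp2, at 5.92 ± 0.977 CPM in KO vehicle and 3.55 ± 0.468 CPM in WT vehicle livers (0.74 ± 0.27, edgeR adjusted p = 0.671).

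Between WT vehicle and normal livers, none of the 29 genes passed (edgeR adjusted p of 0.177 or more), where 2.0% of all tested genes did (1.18% higher and 0.822% lower). At an unadjusted p under 0.05 there were 2, both GTPases, against 15.2% of all tested genes, and DESeq2 and limma-voom called none. Estimates were negative for 23, with a median of -0.19, against 48.3% negative and a median of 0.01 over all genes. Those of all 6 GTPases were negative (median -0.26), as were 17 of the type I estimates (median -0.18). The median over the 29 was -0.32 without WT vehicle 3 and -0.12 without normal 2. Igtp had the smallest adjusted p, at 23.1 ± 5.09 CPM in WT vehicle and 36.6 ± 11.8 CPM in normal livers (-0.67 ± 0.24, 0.177).

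In WT PRA livers against normal livers, 3 type I genes were higher and 3 GTPases lower, where 13.5% of all tested genes were higher and 14.9% lower. Besides Mx2, Usp18 (0.90 ± 0.22, edgeR adjusted p = 0.00416) and Irf9 (0.33 ± 0.10, 0.0141) were higher. The call of Irf9 was lost without normal 1 (0.0505) or WT PRA 4 (0.0591). Igtp (-1.04 ± 0.24, 0.0041), Gbp7 (-0.99 ± 0.17, 0.00015) and Gbp2 (-0.83 ± 0.28, 0.0306) were lower. The call of Gbp2 rested on normal replicate 3, without which the change was -0.31 (0.24), and it was lost also without WT PRA 3 (0.0868) or WT PRA 4 (0.0763). The median over the 29 genes was 0.02 (0.04 for the type I genes and -0.53 for the GTPases), against -0.02 for all genes, and with upper quartile scaling it was -0.04. When 1 library was left out, the median over the 29 lay between -0.10 (without WT PRA 2) and 0.13 (without normal 2), and that of the GTPases was -0.24 without normal 3.

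Related genes outside the 29 were taken from lists of the same pathway. Over all tested genes, PRA lowered 8.38% and raised 7.96% in KO livers, and lowered 12.3% and raised 9.74% in WT livers. Of 13 other interferon-induced GTPases, 8 fell in KO PRA livers and none rose, with a median of -1.14, and all 13 estimates were negative. After vehicle, 12 of the 13 estimates were positive for KO against WT livers, with a median of 0.62. None of these passed by edgeR, and 8 had an unadjusted p under 0.05, against 5.99% of all tested genes. Between KO PRA and WT PRA livers 6 estimates were positive and 7 negative, with a median of -0.11. Against normal livers, 8 of the 13 were lower in WT PRA livers (median -0.89). In WT vehicle livers all 13 estimates were already negative against normal livers, with a median of -0.39. Of these, 1 passed by edgeR (adjusted p = 0.0476) and 3 by DESeq2, where 0.822% of all tested genes were lower by edgeR. Irgm2, an IRG regulator, averaged 16.5 ± 4.89 CPM in KO PRA and 40.9 ± 4.39 CPM in KO vehicle livers (-1.31 ± 0.18, edgeR adjusted p = 6.11e-05), and Ifi47 was at 6.24 ± 1.69 and 16.4 ± 6.86 CPM in the same groups (-1.39 ± 0.27, 0.00193). In WT livers 2 of the 13 fell, Gbp4 (1.5 ± 0.374 CPM with PRA, 2.56 ± 0.161 CPM with vehicle; -0.79 ± 0.21, 0.00817) and Gbp11 (1.65 ± 0.915 and 5.89 ± 2.01 CPM; -1.80 ± 0.47, 0.0114), and the median was -0.33. Of 44 other interferon-induced genes tested, 13 fell and none rose in KO livers, with a median of -0.38, and 2 rose and 2 fell in WT livers, with a median of 0.01. The 2 that rose with PRA in WT livers were Isg20, an exonuclease (4.14 ± 0.269 and 2.43 ± 0.275 CPM; 0.77 ± 0.18, 0.00437), and Trafd1, a signalling inhibitor (0.32 ± 0.09, 0.0168), whose call was lost without WT vehicle 4 (0.066) or WT PRA 2 (0.0645). The 2 that fell were the chemokine gene Cxcl11 (1.24 ± 0.23 CPM with PRA, 2.76 ± 0.626 CPM with vehicle; -1.15 ± 0.27, 0.00366) and Sp100, a nuclear body protein (8.18 ± 0.756 and 10.6 ± 0.582 CPM; -0.37 ± 0.09, 0.00573). Sp100 fell in KO livers too (8.46 ± 0.308 CPM with PRA, 12.4 ± 0.853 CPM with vehicle; -0.55 ± 0.10, 0.000703).

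**Figure D4:**
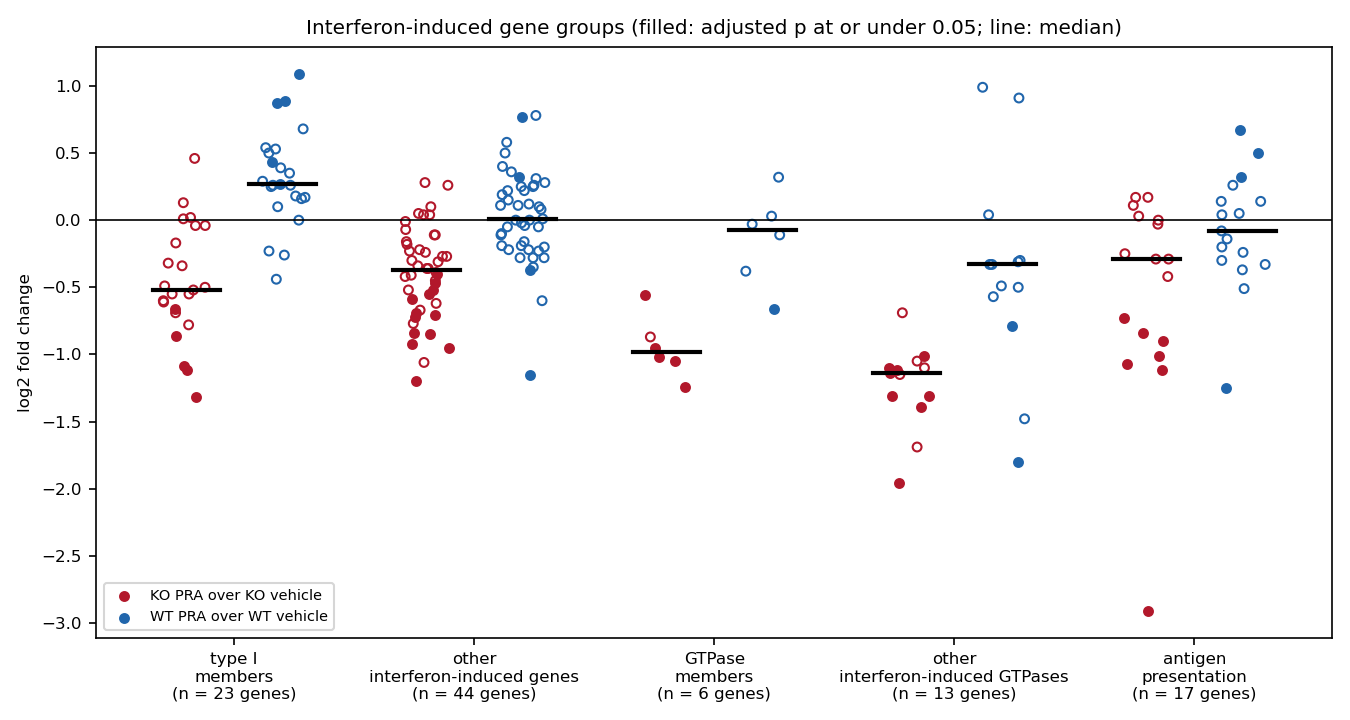
Log2 fold change of every tested gene in 5 interferon-related groups for KO PRA over KO vehicle (red) and WT PRA over WT vehicle (blue), filled where the edgeR adjusted p was at or under 0.05, with a line at each median. In KO livers the medians run from -1.14 for the other GTPases to -0.29 for antigen presentation, and in WT livers from -0.33 for the other GTPases to 0.27 for the type I genes.

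Among 17 signalling genes and inhibitors, 3 fell and 1 rose in KO livers, and 3 fell and 3 rose in WT livers. Of all tested genes, 8.38% fell and 7.96% rose in KO livers, and 12.3% fell and 9.74% rose in WT livers. Irf1, the transcription factor that carries interferon gamma signals to GTPase genes, averaged 21.5 ± 2.15 CPM in KO PRA and 37.7 ± 3.17 CPM in KO vehicle livers (-0.81 ± 0.12, edgeR adjusted p = 5.32e-05). It was at 24.3 ± 1.53 CPM in WT PRA and 35.0 ± 4.05 CPM in WT vehicle livers (-0.52 ± 0.11, 0.0011). Ptpn2, a tyrosine phosphatase that dampens cytokine signalling, rose in WT livers (21.8 ± 2.74 CPM with PRA, 11.1 ± 0.445 CPM with vehicle; 0.97 ± 0.10, 5.63e-07) and was at 12.8 ± 1.21 CPM in KO PRA and 10.8 ± 1.1 CPM in KO vehicle livers. Its interaction passed (-0.72 ± 0.15, 0.0244), but not without any 1 of WT vehicle 4, WT PRA 3, KO vehicle 3 and 4 or KO PRA 3 (0.0513 to 0.0842). Ptpn1, a related phosphatase, rose in WT livers as well (0.72 ± 0.11, 0.000106). Irf5, a transcription factor of inflammatory genes, fell in KO (-1.0 ± 0.18, 0.000709) and WT livers (-0.80 ± 0.17, 0.00157).

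Markers of other cells moved with PRA beside these genes. The shares of all tested genes were 8.38% lower and 7.96% higher in KO livers, and 12.3% lower and 9.74% higher in WT livers. All 4 B cell markers fell in KO livers, with a summed level of 0.361 to 0.678 CPM in KO PRA and 2.31 to 3.20 CPM in KO vehicle libraries, and 3 of the 4 fell in WT livers (0.294 to 0.761 CPM with PRA, 0.727 to 2.65 CPM with vehicle). All 5 tested neutrophil markers rose in WT livers (summed 9.93 to 11.6 CPM with PRA, 1.40 to 3.09 CPM with vehicle) and 2 of 5 in KO livers (4.08 to 12.8 and 4.37 to 5.87 CPM). The neutrophil interaction estimates were all negative (median -1.84), and that of S100a8 passed (edgeR adjusted p = 0.00328). After vehicle, all 5 were higher in KO than in WT livers (median 0.87), and 1 passed (edgeR adjusted p = 0.00913). Between KO PRA and WT PRA livers all 5 estimates were negative and none passed (lowest edgeR adjusted p = 0.334). Of 5 monocyte markers, Ccr2 alone fell in KO livers (summed 1020 to 1250 CPM with PRA, 980 to 1310 CPM with vehicle), and Itgam and Fn1 rose in WT livers (1400 to 1780 and 1010 to 1370 CPM). Their median log2 fold change was -0.82 in KO and 0.37 in WT livers. The monocyte sums lay above the Kupffer cell sums given below. Whether monocytes held these transcripts, Fn1 among them, was not tested, so neither the sums nor the rise of Fn1 measures monocytes. All 5 monocyte interaction estimates were negative (median -1.06), 4 at an unadjusted p under 0.05, with a lowest edgeR adjusted p of 0.255. After vehicle, 4 of the 5 were positive for KO against WT livers (median 0.69), and none passed. Of 5 sinusoidal endothelial markers, 3 fell and 1 rose in KO livers (131 to 154 and 157 to 184 CPM), and 4 fell and 1 rose in WT livers (124 to 150 and 140 to 202 CPM). No marker of Kupffer cells, plasmacytoid dendritic cells, dendritic cells or T and NK cells passed in either genotype by edgeR, DESeq2 or limma-voom. At an unadjusted p under 0.05, 1 marker of plasmacytoid dendritic cells and 1 of T and NK cells were counted in KO livers and 2 of Kupffer cells in WT livers. Summed levels were 218 to 291 CPM in KO PRA, 266 to 296 CPM in KO vehicle, 237 to 352 CPM in WT PRA and 119 to 258 CPM in WT vehicle libraries for Kupffer cells. For plasmacytoid dendritic cells they were 10.8 to 11.9, 11.9 to 13.8, 9.42 to 11.5 and 11 to 13.2 CPM in the same groups. Sums for dendritic cells and for T and NK cells lay between 1.22 and 3.12 CPM in these groups. No marker was at 0 in all libraries. The part of these cells in the fall of the GTPases or the rise of the type I genes was not tested.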

How the data were processed

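Poly(A) RNA of mouse liver was sequenced as read pairs in 19 libraries, per the labels' protocols, and the authors deposited raw counts per gene. Tools named in the submitters' processing notes are HISAT2 2.2.1, HTSeq 0.11.3 and SAMtools, with build GRCm39. The sources used here do not give the annotation release or strand setting, so reads of overlapping and antisense genes cannot be told apart. Reads not uniquely placed (14.07% to 19.15% of a library) and reads outside genes (6.28% to 7.58%) stayed out of library sizes and tests. Groups came from the sample titles.

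Genes were filtered by filterByExpr of edgeR 4.0.16 (R 4.3.3), which kept 15570, and libraries were scaled by TMM. All 19 libraries entered 1 quasi-likelihood fit, each group having its own mean. P-values of 7 contrasts were adjusted by Benjamini-Hochberg over all tested genes, with a threshold of 0.05. Per-library and mean values are TMM-scaled CPM, and each log2 fold change is given ± its SE. The procedure was tested on simulated data. Promoter sequences are RefSeq's, and exon lengths and transcript identity come from GENCODE transcripts on GRCm38.

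The genes and lists were chosen with earlier results of these data known. A gene of the 29 is given in full if it passed in any contrast or had the smallest p of its role in WT PRA against WT vehicle. A related gene is named if it passed, reached 2 CPM in a compared group and was among the 4 smallest p-values of its list. Alternatives tried were scaling by RLE or upper quartile, no filter, DESeq2 1.42.0, limma-voom (limma 3.58.1), a replicate block, only the compared groups and leaving out each library. One gene of the signalling list that the naming rule selects is not reported here by name.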

Additional observations from a re-analysis of the deposited data

Results flagged for a closer look

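Within a group, a library was marked where its gap to the nearest other library was a large share of the group's whole range. This touched 6 of 116 groups of the 29 genes, and chance marks about 1 in 20. The rule was applied only to groups of 4 libraries, so KO PRA (n = 3) was not examined. Mx1 was at 1.17 CPM in normal replicate 1, below 1.34 to 1.36 CPM in the other normal libraries. Rsad2 was at 11.7 CPM in KO vehicle replicate 1, above 5.79 to 6.68 CPM in the others of its group. In normal replicate 2, Cmpk2 was at 7.60 CPM, above 3.52 to 3.95 CPM, and Isg15 was at 11.2 CPM, above 7.65 to 8.01 CPM. Gbp3 was at 6.10 CPM in WT vehicle replicate 3, above 4.47 to 4.74 CPM. Iigp1 was at 252 CPM in WT vehicle replicate 1, above 207 to 212 CPM.

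Irgm1 was marked because its response to PRA differed between the genotypes by a test of the difference itself (KO response minus WT response, -0.88 on the log2 scale, edgeR adjusted p = 0.0216).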

How the results depend on the processing

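Over 47 gene results and 766 alternatives, 662 kept direction and side of the threshold, 77 no longer passed, 27 newly passed and none changed direction. The count of genes lower in the interaction (1) was 2 with RLE scaling, 3 with upper quartile scaling, 4 with DESeq2, 3 with limma-voom, 0 without KO vehicle 1 and WT PRA 2 together, and 0 to 4 when 1 library was left out. The count lower in KO PRA than WT PRA (5) was 8 with DESeq2, 3 without those 2 libraries, and 1 to 6 when 1 library was left out. The count lower with PRA in KO livers (10) was 6 without those 2 libraries and 6 to 12 when 1 was left out. For the other counts, all alternatives stayed within 1.5 times. The replicate numbers did not pair the libraries (correlations of -0.407 to 0.278 over 36 same-numbered pairs, 10 above 0.1). With the replicate block the interaction count was 2 and the count lower in KO PRA than WT PRA was 3. The cause of these changes was not tested. Calls in the report were also lost for Ifit3, Ifit3b and Xaf1 (KO livers), Stat2 (WT livers) and Gbp2 (WT PRA against normal) without a filter (edgeR adjusted p of 0.057 to 0.0982). With limma-voom those of Ifit3, Ifit3b, Xaf1 and Gbp2 were lost (0.0697 to 0.112), and with only the compared groups those of Ifit3, Xaf1, Gbp2 and Mx2 (KO PRA against WT PRA; 0.0748 to 0.143). The block lost Ifit3, Ifit3b, Xaf1 (both KO comparisons) and Mx2 (0.0545 to 0.0871), upper quartile scaling lost Stat2 (0.0794) and Xaf1 (KO PRA against WT PRA, 0.0526), and RLE lost Xaf1 in KO livers (0.053). DESeq2 added Gbp2 in KO livers (0.0204), Irgm1 in WT livers (0.0355), the interactions of Iigp1 (0.00225), Irf9 (0.00993) and Gbp3 (0.022), Ifit1 (0.00494), Stat2 (0.0346) and Usp18 (0.0343) in KO PRA against WT PRA, and Oas3 in WT PRA against normal (0.0368). With limma-voom Oas3 passed in WT livers (0.0288). Leaving out KO PRA 1 added Ifi44 (0.0271), Irf7 (0.0331) and Rtp4 (0.0376) in KO livers, and leaving out KO vehicle 2 added Isg15 (0.0437) and Rtp4 (0.0343).

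Upper quartile scaling moved the share of higher genes among all called genes to 34.0% for WT PRA and 35.3% for KO PRA, against 44.1% and 48.7% with TMM. It also left 20 positive estimates among the 29 genes in WT livers and 2 in KO livers, against 21 and 4 with TMM. With 3 or 4 libraries a group and levels near 1 CPM for Ddx60, Ifit2 and Oas3, small differences are not detectable. Reads that fit both genes of a near-identical pair would be among those not uniquely placed, which stayed out of the counts.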

Other observations

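Of 17 genes that present antigen to T cells, 7 fell and none rose in KO PRA livers, where 8.38% of all tested genes fell. In WT PRA livers 3 rose and 1 fell, where 9.74% of all tested genes rose and 12.3% fell. The difference between the genotypes' responses missed the threshold for all 17 (lowest edgeR adjusted p = 0.133), with 1 called by DESeq2 and 0 by limma-voom. At an unadjusted p under 0.05 there were 9, against 8.94% of all tested genes. Class II genes fell in KO livers: H2-Ab1 averaged 18.8 ± 3.63 CPM in KO PRA and 40.9 ± 2.56 CPM in KO vehicle livers (-1.12 ± 0.26, edgeR adjusted p = 0.00674), H2-Aa was at 13.4 ± 1.99 and 28.2 ± 3.19 CPM (-1.07 ± 0.24, 0.00452) and the invariant chain Cd74 at 56.3 ± 12 and 101 ± 5 CPM (-0.84 ± 0.19, 0.00562). The peptide transporter Tap1 fell as well (21.1 ± 0.836 and 35.0 ± 2.30 CPM; -0.73 ± 0.13, 0.000655). Against normal livers, 8 of the 17 genes were lower in WT PRA livers and 4 higher, where 14.9% and 13.5% of all tested genes were. Tap1, H2-Ab1, H2-Aa and Cd74 were among the 8. The calls of H2-Ab1, H2-Aa and Cd74 in that comparison were each lost on leaving out any of several single libraries. In WT livers Nlrc5, the transactivator of class I genes, rose (19.1 ± 2.75 CPM with PRA, 12 ± 0.954 CPM with vehicle; 0.67 ± 0.12, 0.00028), together with the class I gene H2-D1 (754 ± 29.9 and 532 ± 80.6 CPM; 0.50 ± 0.10, 0.00122). Class I genes resemble one another closely, which makes separate values uncertain.

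Of 16 tested sensing genes, 1 rose and 4 fell in KO livers, and 3 rose and 2 fell in WT livers. Among all tested genes, 7.96% rose and 8.38% fell in KO livers, and 9.74% rose and 12.3% fell in WT livers. Myd88, the adaptor of most Toll-like receptors, rose in WT livers (40.3 ± 2.82 CPM with PRA, 20.1 ± 0.671 CPM with vehicle; 1.0 ± 0.08, edgeR adjusted p = 1.13e-08). In KO livers it was at 20.9 ± 1.45 CPM with PRA and 17.6 ± 0.820 CPM with vehicle (0.25 ± 0.08, 0.0412), a call lost without any 1 of KO vehicle 1, 2, 3 and 4 or KO PRA 1 and 3 (0.0545 to 0.138), and the difference between the responses passed (-0.75 ± 0.11, 0.00115). Ddx58, which encodes the RNA sensor RIG-I, fell in KO livers (13.6 ± 0.429 CPM with PRA, 20.6 ± 1.31 CPM with vehicle; -0.59 ± 0.13, 0.00292). It fell in WT livers too (13.7 ± 3.15 CPM with PRA, 18.4 ± 1.69 CPM with vehicle; -0.42 ± 0.12, 0.0143), but not without WT PRA 1 (0.058) or WT PRA 3 (0.0565).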
